A study of Mus musculus with 3 samples.

Results

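Terminal chondrocytes of the mouse fracture callus were described as the cartilage barcodes that carried RNA of the collagenase Mmp13 or of bone genes. They were chosen by a rule on measured counts of unique molecular identifiers (UMIs). A barcode needed 500 detected genes or more, with no more than 10% of its UMIs mitochondrial. Col2a1 and Col10a1 together made up at least 1% of its UMIs and were not below Col1a1. Mmp13, Bglap, Bglap2, Ifitm5 and Dmp1 together reached 0.05% of its UMIs. In all, 132 of 14807 barcodes met the rule, out of 5463 that passed the filters and 2688 cartilage barcodes that met the collagen condition. The levels of the 8 genes that the rule used are given below as a description of the choice, and nothing rests on them. Since the rule chose the barcodes from these same counts, every other difference between them and the remaining cartilage is also a description, and no test was made.

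In cartilage that is being replaced by bone, chondrocytes stop dividing, enlarge and lay down type X collagen (Col10a1), and then reach a terminal state in which they degrade and mineralize the matrix around them. Mmp13, a collagenase that cleaves type II collagen, and Spp1 (osteopontin), an acidic phosphoprotein of mineralized matrix, are the classical RNAs of this state. The terminal cell either dies or, as lineage tracing in mice has shown, can survive and contribute osteoblasts. Bglap and Bglap2 (osteocalcin), Ifitm5 and Dmp1 are genes of osteoblasts and osteocytes.

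The series asks whether inhibitors of salt-inducible kinases (SIK), enzymes that act below the parathyroid hormone receptor, stimulate mineralization of a fracture. Female C3H/HeJ mice, 9 weeks old, had a femur pinned and broken at midshaft, and callus was taken on day 7 with the marrow avoided and digested with collagenase. There were 3 droplet libraries read from the 3′ end of transcripts, 1 per treatment: a control, which the design gives as a PBS vehicle, PTH 1-34 at 100 µg/kg and YKL-05-099, a SIK inhibitor called YKL below, at 15 mg/kg. Day 7 is given by the titles and the extraction protocol of these samples, while the design text lists later days for euthanasia and speaks of single cells only at early time points. Injections were daily and subcutaneous. The labels do not state how many animals went into a library. Every mouse shared the strain, sex and fracture, and C3H/HeJ is described in the design as healing slowly. With 1 library per treatment there is no replicate check, so each value describes these libraries, and the 95% intervals cover counting error only.

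The libraries held 8021 control, 5286 PTH and 1500 YKL barcodes, of which 2944, 1913 and 606 passed the filters. Chondrocytes by the rule were 43 control, 35 PTH and 54 YKL barcodes, with a median of 12552, 14889 and 27155.5 UMIs and of 2819, 3123 and 4530 genes. Median mitochondrial shares were 2.04, 1.44 and 1.46%. The YKL barcodes were thus far deeper than those of the other libraries. Haemoglobin RNA set the control library apart: over 0.1% of UMIs came from haemoglobin genes in 42 of 43 control, 7 of 35 PTH and 4 of 54 YKL terminal chondrocytes. Their summed level was 36202, 496 and 323 CPM, the usual scaling of UMIs to the total of the set. Median haemoglobin shares per barcode were 0.224, 0.0391 and 0.0319%, and 24.7% in the highest control barcode. In the control and PTH libraries a single barcode gave most of the RNA of some lists of other cells. One control barcode gave 97.8% of the neutrophil RNA (2039 CPM, against 11.2 and 7.72 in PTH and YKL). One PTH barcode gave 94.5% of the RNA of the osteoclast list (475 CPM, against 77.2 and 51.5). That list shares Mmp9 and Ctsk with the list of matrix proteases. The same PTH barcode gave 65.2% of the tendon RNA (86.1 CPM). It held 4096 CPM Col1a1 beside 12522 Col2a1 and 650 Col10a1, and what cell it came from was not tested. The control barcode also gave 71.6% of the macrophage and leukocyte RNA (166 CPM, against 48.6 and 12.2). In each of these libraries that barcode was also the one with most UMIs of the 5 rule genes, 194 of 1745 in the control and 256 of 1179 in PTH. None of 6 lymphocyte markers had a UMI in the control, and 1 and 2 had one in PTH and YKL. Endothelial markers summed to 9.41, 24.3 and 12.9 CPM, muscle markers to 35.8, 65.5 and 1.93 CPM and pericyte markers to 134, 155 and 142 CPM. Fibroblast markers, some of which cartilage also expresses, summed to 3885, 5115 and 4473 CPM, against 4285, 3892 and 3643 CPM in the remaining cartilage. Their part in the results was not tested. No barcode sequence of a terminal chondrocyte occurred in a second library.

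Against the markers fixed for the label, Mmp13 was detected in 42 of 43 barcodes (control), 34 of 35 (PTH) and 49 of 54 (YKL), and Spp1, which the rule did not use, in 41, 31 and 45. Bglap was detected in 16, 18 and 32 barcodes. Dmp1, a protein of osteocyte matrix, was detected in 1, 2 and 0 barcodes and Ifitm5, an osteoblast membrane protein, in 0, 0 and 3. Detection of Mmp13, Bglap, Dmp1 and Ifitm5 follows from the rule, so of these markers Spp1 alone bears on the label, and it was present in most barcodes of each library. Other cartilage also held Spp1 RNA, at the lower summed levels given below. The share of its barcodes with an Spp1 UMI is not set beside this. Some barcodes went against the label. The 3 YKL barcodes with Ifitm5 had no Mmp13 UMI, 132, 134 and 16.4 CPM Col10a1, and 28159, 28790 and 20266 CPM Col1a1 beside 29278, 31454 and 46185 CPM Col2a1. Type I collagen in these 3 barcodes lay close to the level of type II collagen, and the rule admitted them because it was not above. In PTH 2 barcodes with Dmp1 were alike, with 28230 and 26405 CPM Col1a1 beside 30223 and 38015 CPM Col2a1. A further 2 YKL barcodes, which entered on osteocalcin, had neither an Mmp13 nor an Spp1 UMI and 26.5 and 0 CPM Col10a1. Whether each is 1 cell or a mixture was not tested. The barcodes that passed on Mmp13 alone, described below, hold none of these 7. Similar ones occur among them: a YKL barcode had 16444.5 CPM Col1a1, 25545 Col2a1 and 79.8 Col10a1. A control barcode there had 16766.5, 33533 and 0 CPM of the same genes. Outside that class, a control barcode that entered on osteocalcin had no Mmp13 UMI and 0 CPM Col10a1. The 7 are thus not all the barcodes that go against the label. Values that rest on the 3 with Ifitm5 are given without them as well, and the share of terminal chondrocytes in YKL, below, is 12.5% (51 of 407) when they are left out.

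Mmp13 lies on chromosome 9 (7272514 to 7283331, plus strand, mouse build GRCm38), Bglap on chromosome 3 (88383501 to 88384464, minus strand) and Spp1 on chromosome 5 (104435118 to 104441050, plus strand), where Dmp1 (104202613 to 104214102) and Ibsp (104299171 to 104311469) precede it on the same strand. Their promoters are shown because these 3 genes carry most of the description that follows. The windows are the 250 bases before the start of a RefSeq entry (GRCm38.p6), read 5′ to 3′ on the strand of the gene, at chr9:7272264-7272513 for Mmp13, chr3:88384467-88384716 for Bglap and chr5:104434861-104435110 for the first Spp1 entry. Capitals mark ACCACA, the core that RUNX factors bind, and TGACTCA, the AP-1 site, each searched on both strands. The motifs do not overlap.
Mmp13: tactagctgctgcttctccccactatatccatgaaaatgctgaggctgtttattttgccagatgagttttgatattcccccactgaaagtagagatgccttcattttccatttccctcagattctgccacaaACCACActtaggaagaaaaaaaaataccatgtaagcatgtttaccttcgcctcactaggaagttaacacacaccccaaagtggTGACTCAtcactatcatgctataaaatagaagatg
Bglap: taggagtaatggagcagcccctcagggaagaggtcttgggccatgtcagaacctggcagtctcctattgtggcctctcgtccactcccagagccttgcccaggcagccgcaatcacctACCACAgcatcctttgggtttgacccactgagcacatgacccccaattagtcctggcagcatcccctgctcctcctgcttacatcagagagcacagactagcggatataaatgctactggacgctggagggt
Spp1: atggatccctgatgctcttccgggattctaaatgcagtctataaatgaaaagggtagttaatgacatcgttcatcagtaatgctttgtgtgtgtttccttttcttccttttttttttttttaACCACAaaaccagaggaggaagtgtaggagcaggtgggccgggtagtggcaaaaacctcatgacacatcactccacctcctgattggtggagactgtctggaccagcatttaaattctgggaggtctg
All 3 windows held ACCACA, at 118, 132 and 128 bases before the start, and that of Mmp13 also held TGACTCA at 35 bases. Of 32851 mouse promoter windows of this length, 14.0% held the RUNX letters and 4.46% the AP-1 letters. The letters were absent from the Ifitm5 and Ibsp windows, the first Dmp1 entry and the second Spp1 entry, and present at 164 bases in the second Dmp1 entry. Such a match is a description of the sequence and no evidence of binding. Runx2, the RUNX factor of hypertrophic cartilage and bone, was detected in 33, 31 and 47 of the terminal chondrocytes, and Fos and Jun, which form AP-1, are taken up with the treatments.

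Most of the barcodes met the rule through Mmp13 alone. In the control library 36 of 43 reached 0.05% with Mmp13 only, 2 with the bone genes only (Bglap, Bglap2, Ifitm5 and Dmp1), 4 with each of both and 1 only with the sum. The same counts were 24, 4, 4 and 3 in PTH and 34, 11, 9 and 0 in YKL. The summed level of Mmp13 was 3090 CPM in control, 1755 in PTH and 2682 in YKL chondrocytes, with barcode medians of 1737, 959 and 1335 CPM and single barcodes at 0 in every library. In the remaining cartilage Mmp13 was 6.40, 9.67 and 14.9 CPM. The Mmp13 barcodes thus spanned a wide range, and 27.1% of the Mmp13 UMIs in PTH and 29.5% in YKL came from a single barcode. Without these barcodes the summed level was 1428 CPM in PTH and 1976 in YKL. The PTH one is the barcode that gave most of the osteoclast list RNA.

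**Figure D1:**
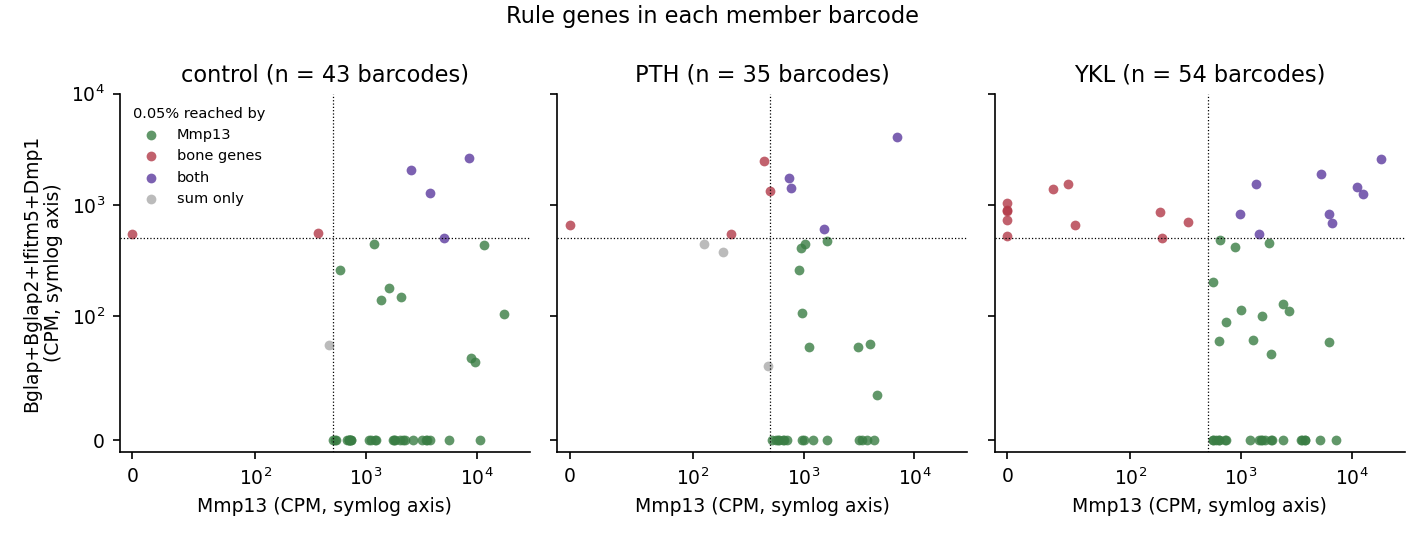
Each point is 1 terminal chondrocyte barcode, with Mmp13 on the x axis and the sum of Bglap, Bglap2, Ifitm5 and Dmp1 on the y axis, both in CPM on axes that are linear near 0 and logarithmic above, in 1 panel per library; colour gives which of them reached 0.05% of UMIs (500 CPM, dotted lines). The points lie mostly along the right of each panel, where Mmp13 alone passes, with 2 control, 4 PTH and 11 YKL barcodes that pass on bone genes only.

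Bglap, the osteocalcin gene, summed to 188 CPM in control, 397 in PTH and 413 in YKL barcodes, from 100, 212 and 642 UMIs. Its neighbour Bglap2 gave 3.77, 43.0 and 56.0 CPM from 2, 23 and 87 UMIs. The transcripts of both are near copies, with 434 of 440 aligned bases identical and no difference in the last 100, so counts between them are uncertain and are best read as a sum. As rule genes they helped to choose the barcodes, so nothing is read from their levels between libraries. Ifitm5 stood at 0, 0 and 60 UMIs, and Dmp1 at 2, 6 and 0 UMIs. Barcodes led by Col1a1 instead held Ifitm5 at 141, 24.0 and 106 CPM and Dmp1 at 9.75, 21.4 and 354 CPM, so both RNAs were present in the callus, at higher levels in the barcodes led by Col1a1.

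The threshold was crossed on few UMIs in some barcodes. The median count of rule-gene UMIs was 15, 20 and 41 per barcode, and 2 control and 1 YKL barcodes entered on 1 UMI. Near the threshold, the lowest share inside was 0.0508, 0.0521 and 0.0530% and the highest outside 0.0439, 0.0492 and 0.0478%, with 8, 9 and 10 barcodes within 0.01 percentage points of it. Cells that should lack these genes give the level of free RNA. Neutrophil barcodes with a rule-gene UMI numbered 18 of 475, 1 of 21 and 1 of 16 (3.79, 4.76 and 6.25%, at median depths of 3417, 1923 and 2668.5 UMIs). Such a UMI was present in 4.49, 7.84 and 9.26% of endothelial barcodes (median 5471, 6047.5 and 7330 UMIs) and in 9.46, 18.8 and 40.2% of cartilage barcodes, which were deeper. Of endothelial barcodes 2 of 178, 1 of 306 and 0 of 54 reached 0.05%, the last of which allows a share of up to 5.56% (3 counts of the total). Of neutrophil barcodes 4 of 475 (0.842%), 1 of 21 (4.76%) and 0 of 16 reached it, the last allowing up to 18.8%. The PTH share in neutrophils rests on 1 barcode and lies near the share of terminal chondrocytes among PTH cartilage, given next. Barcodes led by Col1a1, which include cells that make bone matrix, reached it in 13.8, 8.06 and 41.7%.

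Terminal chondrocytes made up 2.69% of control cartilage barcodes (43 of 1596, Clopper-Pearson 95% interval 1.96 to 3.61), 5.13% in PTH (35 of 682, 3.6 to 7.07) and 13.2% in YKL (54 of 410, 10.1 to 16.8). With barcodes of at least 5000 UMIs thinned to that depth, and shallower ones left out, the shares were 2.25% (34 of 1512), 4.94% (32 of 648) and 12.7% (49 of 386). The order of the libraries did not hold under a narrower definition of cartilage: with Col2a1 and Col10a1 at 5% of UMIs the shares were 5.75% in the control (15 of 261), 3.73% in PTH (5 of 134) and 12.3% in YKL (19 of 155). The share in YKL was the highest of the 3 under each of these settings, and control and PTH changed places. Hypertrophic barcodes, with Col10a1 at 1% of UMIs or more, were themselves 9.34, 9.97 and 27.3% of cartilage barcodes. Among these the rule took 22 of 149 in the control (14.8%, 9.49 to 21.5), 17 of 68 in PTH (25%, 15.3 to 37.0) and 38 of 112 in YKL (33.9%, 25.3 to 43.5). Neighbouring intervals overlap there, and those of control and YKL do not. Cell recovery, depth and treatment cannot be told apart with 1 library each.

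Terminal chondrocytes were first set against the hypertrophic barcodes outside the rule (127 control, 51 PTH and 74 YKL), the cells nearest to them. Relative to these they held more Spp1, Mgp and Fam20c and less of the cartilage matrix genes and of Ibsp. A gene counted as higher or lower at a 1.5-fold ratio of summed CPM with at least 50 UMIs. By that measure 7.9, 18.6 and 9.69% of all genes tested were higher and 17.7, 13.6 and 11.1% lower in the control, PTH and YKL libraries. In the same direction in all 3 libraries, 64 genes were higher (1.96% of 3263) and 188 lower (5.76%).

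Spp1 is a secreted phosphoprotein that binds mineral and is made by terminal chondrocytes, osteoblasts and macrophages. Its barcode median was 13492 CPM in control, 2548 in PTH and 4570 in YKL terminal chondrocytes, and its summed level 20611, 11872 and 15803 CPM. The other hypertrophic barcodes stood at 3638, 2027 and 325 CPM, ratios of 5.66 (5.50 to 5.84), 5.86 (5.57 to 6.16) and 48.6 (45.2 to 52.4). The large ratio in YKL came with a low level in its comparison barcodes, while the level in the terminal chondrocytes lay between those of the other libraries. Spp1 was uneven between barcodes, with 2 control, 4 PTH and 9 YKL barcodes at 0 and 26.6% of the PTH UMIs in 1 barcode. With the collagens at 5% of UMIs, which leaves 5 PTH barcodes, the log2 ratio in PTH was -1.14, against 2.55 before, so the direction in PTH rests on the barcodes with less collagen.

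Mgp, matrix Gla protein, an inhibitor of mineralization, was detected in 40, 32 and 52 barcodes. Its summed level was 12270, 12385 and 19649 CPM, against 2232, 1953 and 2324 in the other hypertrophic barcodes, ratios of 5.50 (5.29 to 5.71), 6.34 (6.03 to 6.67) and 8.45 (8.21 to 8.71). Mgp was higher in each library, and its log2 ratio ranged from 2.44 to 3.21, 1.79 to 2.83 and 2.80 to 3.19 over the alternatives run. Fam20c, the kinase of the secretory pathway that phosphorylates Spp1 and other matrix proteins, was found in 21, 11 and 30 barcodes. It stood at 220, 87.9 and 110 CPM against 20.1, 5.03 and 10.2, ratios of 11 (7.59 to 16.1), 17.5 (6.99 to 56.4) and 10.8 (6.96 to 17.5). Most terminal chondrocytes in PTH therefore had no Fam20c UMI.

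Of bone matrix and osteocyte genes, Spp1, Fam20c and Mmp14 were higher in all 3 libraries and Ibsp, Sparc, Car12 and Smpd3 lower, out of 11 tested in all. Ibsp (bone sialoprotein), a mineral-binding protein of hypertrophic cartilage and early bone, went opposite to Spp1, its neighbour on chromosome 5. It summed to 12110, 2926 and 5925 CPM in terminal chondrocytes and to 22937, 28797 and 14169 CPM in the other hypertrophic barcodes, which were 1.89, 9.84 and 2.39 times higher. Ibsp was still detected in 38, 30 and 52 terminal chondrocytes. Mmp14, a membrane-bound collagenase that activates Mmp13, was 3.91, 2.79 and 1.77 times higher, but 72.3% of its control and 73.3% of its PTH UMIs came from 1 barcode each.

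**Figure D2:**
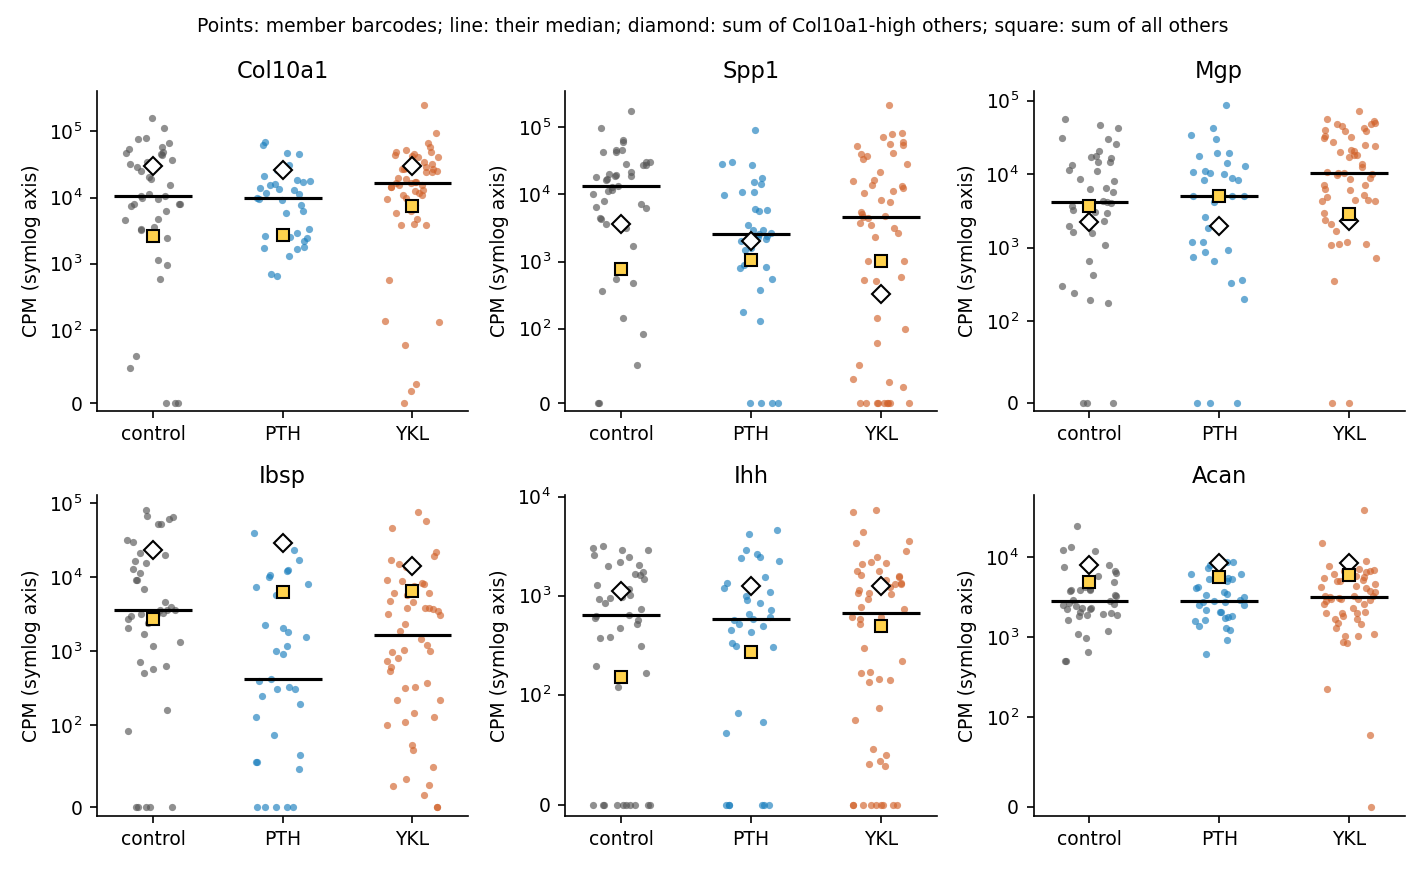
Levels of Col10a1, Spp1, Mgp, Ibsp, Ihh and Acan in CPM (axis linear near 0, logarithmic above) for each terminal chondrocyte barcode by library, with the line at the barcode median, the diamond at the summed level of Col10a1-high barcodes outside the rule and the square at that of all other cartilage barcodes. For Spp1 and Mgp the points reach far above the diamonds in each library, and for Ibsp the PTH median of 417 CPM lies far below the PTH diamond at 28797 CPM.

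Genes of mineralization divided. Alpl, the phosphatase that frees phosphate for mineral, was lower in terminal chondrocytes, at 810, 1128 and 1036 CPM against 1658, 1693 and 1784. Enpp1, which makes the mineral inhibitor pyrophosphate, was 2.90, 2.25 and 2.65 times higher, and Ank, a transporter that raises pyrophosphate outside the cell, 2.58, 1.92 and 2.88 times higher. Of 8 genes of this list tested in all libraries, Enpp1, Ank and Mgp were higher and Alpl and Smpd3 lower. The genes that were higher are thus ones known as inhibitors of mineral, from 14 to 37 barcodes with a UMI for Enpp1 and Ank. Phospho1, the phosphatase of matrix vesicles, had no UMI in terminal chondrocytes.

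Hypertrophic genes other than Col10a1 were mostly level or lower. Ihh (Indian hedgehog), the signal that prehypertrophic and hypertrophic cells send, stood at 1090, 874 and 1057 CPM against 1123, 1246 and 1238, ratios of 0.971, 0.701 and 0.854, none past 1.5-fold. Pth1r, the receptor of PTH, was detected in 42, 34 and 54 barcodes at 1422, 1368 and 1368 CPM, against 2515, 2366 and 2430. Terminal chondrocytes of each library therefore held the receptor RNA, at a level 1.77, 1.73 and 1.78 times below that of the other hypertrophic barcodes. Mef2c, a transcription factor of hypertrophy, was 1.99, 1.71 and 1.82 times lower. In all 3 libraries 6 of 12 tested genes of the list were lower (Pth1r, Mef2c, Foxa3, Clec3a, Alpl and Ibsp) and 0 higher, and the list medians were -0.96, -0.78 and -0.30 on the log2 scale, against -0.09, 0.14 and -0.01 for all genes.

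Cartilage matrix genes were lower in terminal chondrocytes. Acan, the aggregating proteoglycan of cartilage, stood at 3679, 3224 and 4051 CPM against 8017, 8459 and 8390, so that the other hypertrophic barcodes were 2.18 (2.08 to 2.28), 2.62 (2.49 to 2.77) and 2.07 (2.01 to 2.13) times higher. It was still detected in 43, 35 and 53 barcodes. Col11a2, a chain of the thin type XI collagen that nucleates cartilage fibrils, stood at 352, 74.8 and 628 CPM against 1137, 1147 and 1056. Of 19, 18 and 19 genes of the list tested, 15, 17 and 10 were lower, with medians of -1.29, -2.59 and -0.64 (log2), and 9 of 18 were lower in all 3. The list had its lowest median in PTH.

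Among fate transcription factors only Runx1 was called in all libraries, 2.35, 2.46 and 1.63 times higher, out of 9 tested in all. Runx2 stood at 252, 195 and 210 CPM against 169, 209 and 154, none past 1.5-fold. Other genes that the naming rule took as higher were Mdk (midkine, a heparin-binding growth factor), at 177, 331 and 426 CPM against 49.3, 58.3 and 62.9, and Maf, Cebpb, Marcks, Dhrs3, Arhgdib and Tcn2. Cebpb, a leucine zipper factor of hypertrophic cells that acts on the Mmp13 gene, was 3.02, 4.03 and 3.04 times higher and was detected in 24, 25 and 43 barcodes. Maf, a further leucine zipper factor of hypertrophic chondrocytes, was 2.77, 4.12 and 3.94 times higher. Genes taken as lower were Fam180a, Rarres1, Ppp1r1b, Car12, Aldh1a3, Spon2, Thbs1, Stard4, Cyp51 and Slc13a5. Aldh1a3, which makes retinoic acid, stood at 145, 204 and 190 CPM against 809, 1338 and 806. Thbs1, a matrix glycoprotein that inhibits vessel growth, stood at 121, 46.8 and 102 CPM against 490, 585 and 388. Slc13a5, a citrate transporter, had 0 UMIs in PTH terminal chondrocytes, at least 19.7-fold lower with 3 counts as the floor of that sum. Spon2 in PTH turned to 0.29 (log2) with the collagens at 5% of UMIs.

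**Figure D3:**
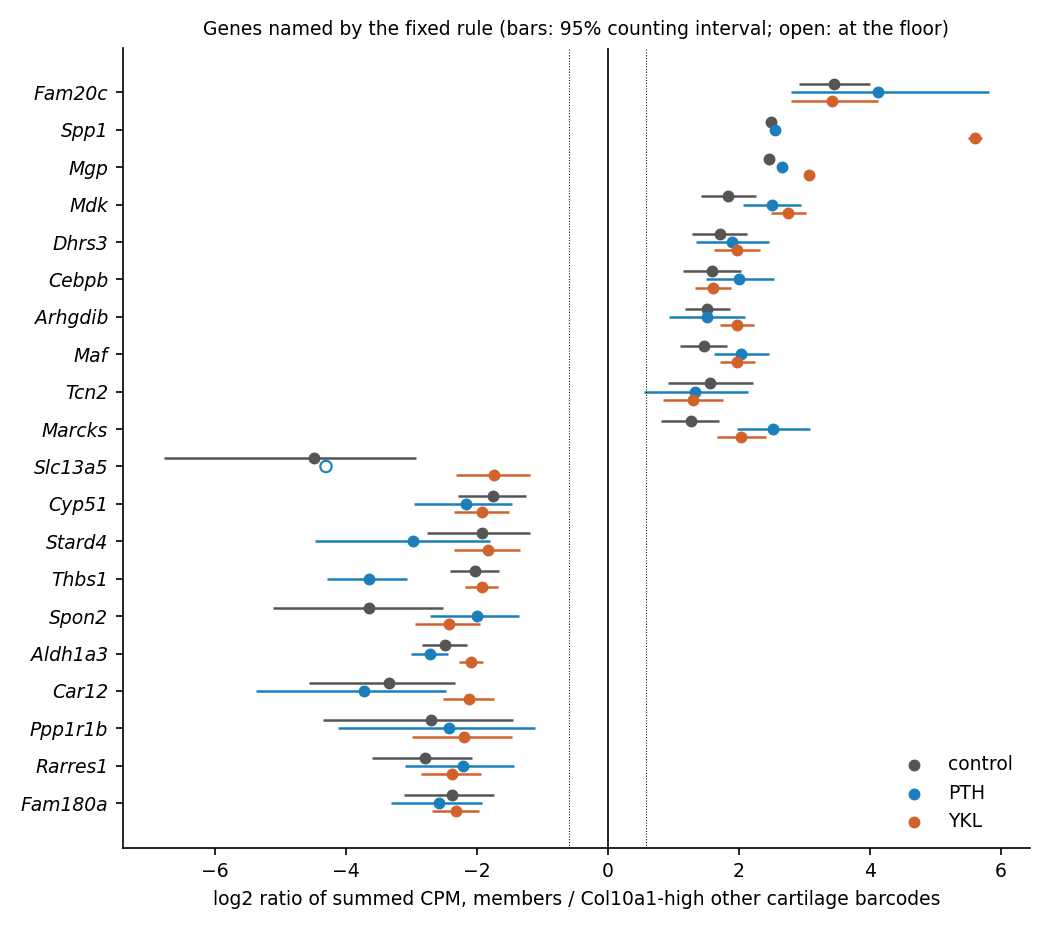
The log2 ratio of summed CPM, terminal chondrocytes against Col10a1-high barcodes outside the rule, for the 20 genes the naming rule took, with the 3 libraries as separate symbols, bars for 95% intervals of counting error, dotted lines at 1.5-fold and an open symbol for a gene at 0 UMIs held at its floor. Spp1, Mgp and Fam20c lie farthest to the higher side, with Spp1 in YKL at 48.6-fold apart from the other libraries.

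Only 51.2, 48.6 and 70.4% of the terminal chondrocytes had Col10a1 at 1% of UMIs themselves, so the comparison was repeated with those alone (22, 17 and 38 barcodes). Mgp was then 8.30, 8.40 and 9.32 times higher and Spp1 5.76, 5.91 and 42.7 times higher. Ibsp was 2.80, 12.5 and 2.12 times lower and Acan 1.76, 2.33 and 1.92 times lower. In all 3 libraries 14 of 18 cartilage matrix genes were lower, where 295 of 2809 genes tested were lower (10.5%) and 81 higher (2.88%). By library, 12.1, 21.7 and 10.1% of all genes were higher and 27, 18.9 and 15.6% lower. Matn3, a matrilin of the growth cartilage, stood at 98.0, 32.5 and 211 CPM against 1385, 1304 and 1233. Cdkn1c, the cell cycle inhibitor p57 of early hypertrophy, stood at 123, 68.6 and 138 CPM against 923, 1459 and 963. Fgfr3, the receptor that restrains growth cartilage, stood at 36.3, 25.3 and 41.6 CPM against 340, 257 and 239. Other calls changed. Pth1r and Alpl were 1.26 and 1.46 times lower in PTH, under 1.5-fold, and so no longer lower in all 3. Fam20c and Enpp1 fell short of 50 UMIs in PTH, and Mmp14 was 0.963 times its comparison level in the control, so none of these was higher in all 3. Phex, a peptidase of osteocytes, was lower in all 3. Mgp, Spp1, Ibsp and the matrix genes kept their direction where both sides had high Col10a1, which summed to 46917, 25801 and 32297 CPM against 30031, 25894 and 29488.

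Against all other cartilage barcodes (1553 control, 647 PTH and 356 YKL), most of which were not hypertrophic, 23.2, 21.3 and 14.2% of genes were higher and 26, 23.3 and 21.3% lower. In all 3 libraries 541 of 9026 genes were higher (5.99%) and 840 lower (9.31%). Spp1 was 26.7, 11.1 and 15.6 times higher, from 772, 1070 and 1015 CPM in the other barcodes. In PTH it turned to -0.88 (log2) with the collagens at 5%. Ihh stood at 151, 269 and 491 CPM in the other barcodes, so it was 7.21, 3.25 and 2.15 times higher in terminal chondrocytes, and Runx2 was 3.95, 2.33 and 2.21 times higher. Fgfr1, the fibroblast growth factor receptor of late hypertrophic cells, was 10.5, 7.04 and 3.99 times higher. Ibsp did not keep a direction: it was 4.51 times higher in the control, 0.469 times in PTH and 0.912 times in YKL.

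Of genes of cell death and autophagy, 7 of 16 were higher than in all other cartilage in each of the 3 libraries and 1 was lower. Depp1, a FOXO target that promotes autophagy, stood at 443, 355 and 703 CPM against 21.7, 45.7 and 66.8, ratios of 20.4, 7.79 and 10.5, in 22, 25 and 43 barcodes. Bax, which permeates the outer mitochondrial membrane in apoptosis, was 1.59, 2.03 and 2.08 times higher. Bcl2l11 (Bim), a BH3-only activator of apoptosis, was 3.22, 2.50 and 7.81 times higher from 5, 5 and 22 barcodes. Against the Col10a1-high barcodes the list divided evenly. Higher in all 3 were 2 of 10, Depp1 (2.20, 1.65 and 3.06 times) and Bax (1.64, 1.94 and 2.12 times), and lower in all 3 were 2, Cdkn1c and Bnip3, a mitophagy receptor (2.24, 1.54 and 1.58 times lower). The list medians against all other cartilage were 0.17, 0.71 and 0.52 (log2), beside -0.04, 0.03 and -0.04 for all genes.

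Genes of hypoxia and glycolysis were lower, 8 of 18 in all 3 libraries and 0 higher, with medians of -1.24, -0.65 and -0.92 (log2). Eno1 (enolase) stood at 407, 528 and 566 CPM against 1467, 1151 and 1268, and Pgam1 (phosphoglycerate mutase) at 444, 460 and 459 CPM against 1206, 903 and 991. Against Col10a1-high barcodes 1 of 14 was lower in all 3 libraries and 0 higher, so few of these genes separated terminal from other hypertrophic chondrocytes. Of genes of the endoplasmic reticulum and secretion 7 of 17 were lower in all 3 and 0 higher, with P4hb (protein disulphide isomerase) at 373, 294 and 354 CPM against 886, 798 and 794. Against Col10a1-high barcodes 0 of 13 were higher and 0 lower in all 3. Mt1 (metallothionein) stood at 346, 174 and 226 CPM against 1969, 2053 and 1217, and H19, a fetal noncoding RNA, at 222, 97.3 and 81.7 CPM against 1190, 622 and 394.

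Ligands by which cartilage calls in osteoclasts and vessels were also read. Csf1, the growth factor of the osteoclast lineage, was detected in 12, 15 and 15 barcodes at 52.7, 89.8 and 49.5 CPM, against 2.92, 2.44 and 1.83 CPM in other cartilage. That is 18.0 (11.3 to 28.1), 36.8 (22.9 to 60.2) and 27.1 (16.6 to 46.3) times higher, with 41.7% of the PTH UMIs from 1 barcode. Of 2 genes of the osteoclast ligand list tested in all 3 libraries, Csf1 was higher and 0 were lower, beside 5.99% of all genes higher. Against Col10a1-high barcodes 0 genes of that list had the UMIs to be tested in all 3, so that comparison is not given. Tnfsf11 (RANKL), which drives osteoclast formation, was detected in only 7, 2 and 8 barcodes at 26.4, 5.61 and 18.7 CPM against 2.18, 0.487 and 0.522, and only the control sums passed the 50-UMI minimum. Vegfa, the main growth factor of vessels, stood at 226, 372 and 390 CPM against 98.8, 104 and 179, ratios of 2.29, 3.59 and 2.18. Against Col10a1-high barcodes Vegfa was 1.37, 1.44 and 1.27 times higher, under 1.5-fold in each, and with Col10a1-high terminal chondrocytes alone it was 1.98, 1.52 and 1.52 times higher, past it in each. Of 5 cell cycle genes tested against other cartilage, Cenpf, a kinetochore protein, was lower in all 3 libraries and 0 were higher.

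Within the terminal chondrocytes the treatments were set against the control library. PTH and YKL share that control, so their values stand side by side and their likeness is no separate result. In PTH 13.8% of 2502 genes tested were higher than in the control and 6.63% lower, with a median of 0.14 (log2) over all genes. In YKL 13.4% of 4145 were higher and 6.49% lower, with a median of 0.04. Fewer cells with a gene and less RNA per cell are both seen in summed levels, so the number of barcodes with a UMI is given beside them. The haemoglobin RNA in 42 of 43 control barcodes (36202 CPM) moved with these comparisons. Its part in them was not tested. Barcodes with 1% or more haemoglobin, or 0.1% or more of markers of blood, endothelial, osteoclast or muscle cells, were left out in an alternative. Both cuts are called the haemoglobin and marker limits below. They left 33 control, 34 PTH and 53 YKL terminal chondrocytes. The PTH barcode they removed is the one that gave most of the osteoclast list RNA. This alternative gave 480 of 2140 genes tested past 1.5-fold for PTH and 863 of 3995 for YKL. The main counts were 511 of 2502 and 823 of 4145.

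Immediate early genes were higher in both treated libraries. Fos, a subunit of AP-1, was detected in 18 of 43 barcodes in the control, 31 of 35 in PTH and 46 of 54 in YKL, with medians of 0, 1383 and 614 CPM. Its summed level was 458, 1588 and 927 CPM, 3.47 (3.01 to 4.02) times the control in PTH and 2.03 (1.77 to 2.33) times in YKL. In other cartilage the same ratios were 1.65 and 1.73. Junb, a further AP-1 subunit, stood at 377, 1100 and 873 CPM, and Jun at 273, 808 and 506 CPM. Egr1, a zinc finger factor, stood at 156, 522 and 317 CPM. Levels of these genes were thus highest in PTH, between in YKL and lowest in the control, and more barcodes carried Fos in the treated libraries. Detection was not compared at equal depth, and median depth was 12552 UMIs in the control, 14889 in PTH and 27155.5 in YKL.

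Atf3, a stress and cAMP-responsive factor, was detected in 7, 25 and 31 barcodes at 67.8, 434 and 239 CPM. That was 6.40 (4.49 to 9.37) times the control in PTH and 3.52 (2.50 to 5.10) times in YKL, against 1.65 and 2.46 in other cartilage. Btg2, an antiproliferative early gene, was detected in 17, 26 and 43 barcodes at 79.1, 475 and 368 CPM, 6.01 (4.32 to 8.54) and 4.65 (3.40 to 6.53) times the control, against 1.42 and 2.18 in other cartilage. Klf4, a zinc finger factor, stood at 54.6, 268 and 147 CPM, 4.90 (3.27 to 7.58) and 2.69 times the control. Without barcodes over the haemoglobin and marker limits, the log2 ratios for PTH were 2.79 for Atf3, 3.09 for Btg2 and 2.16 for Klf4, against 2.68, 2.59 and 2.29 with them. The difference between the ratios, in terminal chondrocytes and other cartilage, was not tested.

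The lists that hold these genes moved with them. Of the SIK, CRTC and cAMP response genes, 6 of 6 tested were higher in PTH (Fos, Fosb, Junb, Atf3, Dusp1 and Ptgs2) and 6 of 8 in YKL, with medians of 1.78 and 1.12 (log2). In other cartilage 8 of 24 were higher and 1 lower in PTH, and 11 and 0 in YKL, with medians of 0.34 and 0.55, where 6.03 and 8.49% of all genes were higher and 3.44 and 9.51% lower. Dissociation and heat shock genes, which collagenase digestion itself raises, were higher too, 10 of 11 in PTH and 10 of 12 in YKL, with medians of 1.55 and 0.95. In other cartilage, of 16 tested in each, Fos, Jun, Atf3, Zfp36 and Socs3 were higher in PTH and Hspa1b lower. In YKL cartilage Fos, Junb, Ier2, Atf3, Btg2, Hspa1a, Zfp36 and Socs3 were higher and Hsph1 lower. The lists share Fos, Junb and Atf3, so cAMP response and dissociation cannot be told apart by them. Of genes that only the first list holds, Fosb and Dusp1 were higher in both treated libraries, Ptgs2 in PTH and Nr4a2 in YKL. Of genes that only the dissociation list holds, Jun, Egr1, Ier2, Ier3, Btg2 and Zfp36 were higher in both. Dnajb1 was higher in PTH, Nfkbia in YKL and Hsp90aa1 in neither. These genes do not tell cAMP response and dissociation apart either. The kinases and Crem, a cAMP-induced repressor, had too few UMIs for a ratio to the control: Sik1 was found in 1, 4 and 6 barcodes, Sik2 in 7, 3 and 4, Sik3 in 10, 10 and 25 and Crem in 2, 4 and 10. Sik3 could be set between YKL and PTH and was 1.22 (0.612 to 2.64) times higher in YKL, under 1.5-fold. Between YKL and PTH, 6 of 14 dissociation genes were lower in YKL and 0 higher, with 7.87% of 4193 genes higher and 9.49% lower (5.76 and 8.72% in other cartilage). The order of the treated libraries turned with the collagens at 5% of UMIs, which leaves 5 PTH barcodes: 3 of 10 dissociation genes were then higher in YKL and 1 lower (median 0.19, against -0.53), and 3 of 6 SIK, CRTC and cAMP genes higher and 1 lower (median 0.34, against -0.33).

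**Figure D4:**
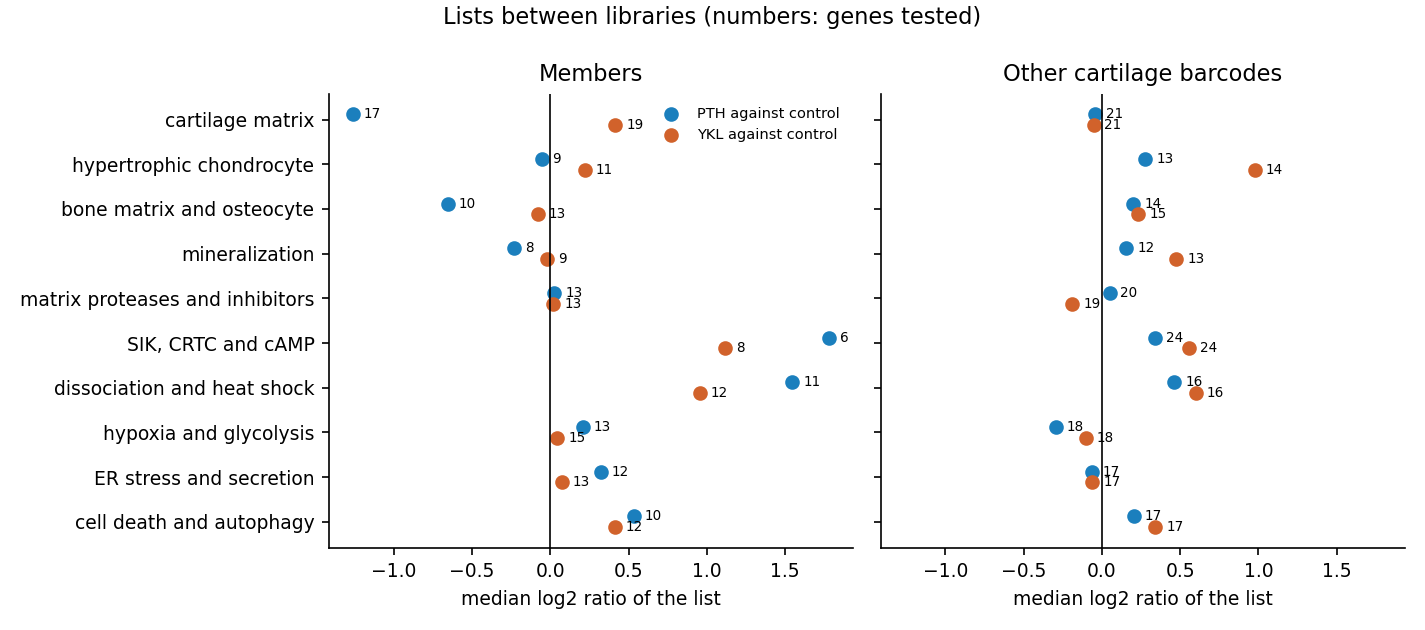
Median log2 ratio of summed CPM for 10 gene lists in PTH and YKL against the shared control, in terminal chondrocytes (left) and in the other cartilage barcodes (right), with the number of genes tested beside each point. The SIK, CRTC and cAMP list and the dissociation list lie at 0.95 to 1.78 on the left, and the cartilage matrix list lies at -1.26 for PTH and 0.41 for YKL on the left and near 0 on the right.

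Cartilage matrix genes divided the libraries. In PTH 13 of 17 tested were lower than in the control and 0 higher, with a median of -1.26 (log2), and in YKL 6 of 19 were higher and 3 lower, with a median of 0.41. The YKL value depended on which barcodes counted. Without the 3 with Ifitm5, 3 of 19 were higher and 3 lower, with a median of -0.04, and with barcodes that passed on Mmp13 alone 4 of 18 each way, with a median of -0.02. With the collagens at 5% of UMIs 13 of 18 were higher and 1 lower, with a median of 1.26. Between YKL and PTH directly, 17 of 19 were higher in YKL and 0 lower, with a median of 1.74 (15 of 18 and 1.51 without those barcodes). Col11a2 was detected in 33, 18 and 41 barcodes at 352, 74.8 and 628 CPM, which was 4.71 times lower in PTH, against 1.09 times higher in other cartilage. Col9a1, a chain of the type IX collagen that coats cartilage fibrils, stood at 970, 299 and 1249 CPM in 40, 29 and 50 barcodes, 3.24 times lower in PTH. Cnmd (chondromodulin, which inhibits vessel growth) stood at 299, 80.4 and 668 CPM in 26, 12 and 44 barcodes. In PTH 4 genes were not past 1.5-fold, Acan, Hapln1, Snorc and Col27a1, with Acan at 0.876 times the control, and 1.10 times in YKL. In other cartilage 2 of 21 genes were higher and 0 lower in PTH, and 2 and 4 in YKL, with medians of -0.04 and -0.05. For Col11a2 the log2 ratio of PTH to control was -2.23, and -2.74 without the barcode with most rule-gene UMIs in each library. Without barcodes over the haemoglobin and marker limits the Col11a2 ratio was -2.87. With the collagens at 5% of UMIs, which leaves 5 PTH barcodes, it was -0.91, and 3 of 12 genes of the list were lower with a median of -0.20.

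Bone matrix genes were lower or level in PTH, 6 of 10 lower (Spp1, Ibsp, Omd, Smpd3, Fam20c and Mmp14) and 1 higher (Tnc), with a median of -0.65 (log2). With the collagens at 5% of UMIs, which leaves 5 PTH barcodes, the direction turned, with 2 of 5 higher, 1 lower and a median of 0.18. Without the barcode of most rule-gene UMIs in each library, 6 of 9 were lower and 0 higher, with a median of -1.09. In YKL 4 of 13 were higher (Col1a2, Cthrc1, Car12 and Tnc) and 3 lower (Ibsp, Fam20c and Mmp14), with a median of -0.08. Without the 3 barcodes with Ifitm5 the YKL counts were 1 higher and 4 lower of 11, with a median of -0.24, and with the collagens at 5% 3 higher and 2 lower of 8, with a median of 0.40. Ibsp had barcode medians of 3526, 417 and 1666 CPM and summed to 12110, 2926 and 5925 CPM, 0.242 (0.228 to 0.255) times the control in PTH and 0.489 times in YKL. In the other cartilage it went the opposite way, 2.32 and 2.42 times the control. The value for PTH depended on which barcodes counted as cartilage: its log2 ratio was -2.05, -1.16 with barcodes thinned to 5000 UMIs and -0.13 with the collagens at 5% of UMIs. Hypertrophic genes were 2 higher and 2 lower of 9 in PTH and 4 higher and 1 lower of 11 in YKL, while in other cartilage 10 of 14 were higher in YKL.

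The naming rule also took genes outside these lists. Slpi, a secreted inhibitor of leukocyte proteases, was detected in 40, 29 and 50 barcodes with medians of 739, 442 and 386 CPM. It summed to 2075, 591 and 520 CPM, 3.51 (3.09 to 3.99) times lower in PTH and 3.99 (3.64 to 4.37) times lower in YKL, against ratios of 0.86 and 0.92 in other cartilage. Without barcodes over the haemoglobin and marker limits its log2 ratio in PTH was -2.0. With the collagens at 5% of UMIs the Slpi ratio was -0.44 in PTH and -0.58 in YKL, under 1.5-fold. Cxcl14, a chemokine, stood at 35.8, 256 and 355 CPM, 7.16 (4.42 to 12.3) and 9.92 (6.29 to 16.6) times the control, but 68.6% of its PTH UMIs came from 1 barcode. Mfap5, a microfibril protein, at 7.53, 370 and 54.7 CPM, owed 87% of its PTH level to 1 barcode, and with the barcode of most rule-gene UMIs left out of each library the log2 ratio of YKL to PTH was 0.13, against -2.76. Fabp3, a fatty acid carrier, stood at 20.7, 123 and 55.3 CPM, and Ucma, a Gla protein of cartilage, at 211, 15.0 and 84.3 CPM. Sgms2, a sphingomyelin synthase of bone, stood at 75.3, 26.2 and 360 CPM, 4.77 times the control in YKL. The 3 barcodes with Ifitm5 held it at 2843 CPM, and without them the log2 ratio of YKL to control was 0.29, against 2.26.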

How the data were processed

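Callus cells of 3 libraries were profiled with a 3′ droplet kit. The deposited files give unnormalized UMI counts for each gene in each barcode. Per the file headers the authors ran Cell Ranger 4.0.0. The submitters' processing notes also name Seurat and mm10. No label says how many animals were pooled. The members and lists were chosen with earlier results of these data known.

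UMIs were summed over barcodes of a set and scaled to CPM. Ratios carry exact conditional binomial 95% intervals and shares Clopper-Pearson intervals, both of counting error only. A gene was tested with at least 50 UMIs over both sums and called at 1.5-fold, and the 8 rule genes and mitochondrial genes were left out of counts. A gene at 0 was held at 3 counts per sum. Of 32285 gene entries 78 share a symbol, and the one with more UMIs was used. No doublet caller was run, and barcodes with over 0.1% UMIs of a list of other cells were left out in an alternative.

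Of 27 gene lists (331 symbols, 0 unmatched), 11 mark other cells. Genes were named by rule. Left out were rule genes, mitochondrial, ribosomal protein and predicted genes, and genes of the lists of other cells. Within libraries a gene needed at least 50 CPM on either side of the comparison in each library. The first 10 higher and 10 lower were taken by the smallest of the 3 log2 ratios with the same direction. Between libraries a gene needed 50 CPM in either library of a pair. The first 6 each way were taken by the interval bound nearest to 1. To these, up to 6 genes per list were added. Of all genes so named, those with most bearing are described. Csf1, Tnfsf11, Fgfr1 and the genes that count sentences name were chosen after their values were seen. Alternatives changed depth, filters, the rule's thresholds, the fold and the barcodes left out. The alternatives on haemoglobin, Ifitm5, the top barcode and Col10a1-high members were added after seeing the data. The code was tested on simulated data. Python 3.11.15, NumPy 2.4.6, SciPy 1.17.1 and pandas 2.3.3 were used.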

Additional observations from a re-analysis of the deposited data

Results flagged for a closer look

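Haemoglobin genes stood apart between libraries. Their median log2 ratio of terminal chondrocytes to other cartilage was 1.19 in the control and went the opposite way in PTH (-2.59) and YKL (-2.69). The difference between libraries was not tested.

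Barcodes left out for mitochondrial RNA held a signal in YKL. Of 18 YKL cartilage barcodes over the 10% mitochondrial maximum, 7 met the rest of the rule (38.9%, Clopper-Pearson 95% interval 17.3 to 64.3), with 167 Mmp13 UMIs, against 5 of 88 in the control (5.68%) and 2 of 36 in PTH (5.56%).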

How the results depend on the processing

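No paired analysis was possible because each group is 1 library. Of 123 values for the shares and the counts of genes past 1.5-fold, 96 stayed within the spread set for them and 27 moved. With the rule genes at 0.1% of UMIs the shares were 1.82, 3.23 and 9.27%. With the collagens at 5% the control share was 5.75%. Genes past 1.5-fold against other cartilage were then 3194 of 6024 tested in control and 2560 of 4569 in PTH. Between libraries they were 175 of 574 for PTH and 468 of 1732 for YKL against control. The main settings tested 10956, 9507, 2502 and 4145 genes in these comparisons. With barcodes thinned to 5000 UMIs the counts were 2686 (PTH) and 1693 (YKL) against other cartilage and 191, 190 and 163 for the pairs PTH and control, YKL and control, and YKL and PTH. At 2-fold they were 3007, 2221, 1488, 158, 233 and 183 in the order of control, PTH, YKL and the 3 pairs, and with 200 UMIs per gene 3449, 2260, 1782, 105, 171 and 142. The main counts were 5398, 4246, 3329, 511, 823 and 728. A 2-fold limit, a higher UMI minimum, thinning and the collagens at 5% all leave fewer genes to call. Col10a1-high terminal chondrocytes alone gave 312 of 1340 genes tested for PTH against control. Without barcodes holding over 0.1% RNA of other cells, 204 of 1596 control cartilage barcodes were left. Of these 204, 0 were terminal chondrocytes (up to 1.47%), so no control ratio could be given. Weighting the carrying classes equally kept the Mmp13 class alone. For named genes 2406 of 2815 values stayed, 404 moved and 5 reversed (values in log2). With the collagens at 5%, Spp1 in PTH was -0.88 against other cartilage and -1.14 against Col10a1-high barcodes, and Spon2 in PTH 0.29. Mfap5 in YKL against PTH was 0.13 without the barcode of most rule-gene UMIs and 0.068 under the haemoglobin and marker limits. Both Mfap5 settings leave out the same PTH barcode, the one that gave most of the osteoclast list RNA. The cause was not tested. Of 245 medians of the 5 lists compared between libraries, 27 changed sign, 17 of them of the hypertrophic list, 4 each of the cartilage matrix and bone matrix lists and 1 each of the SIK and dissociation lists. With the collagens at 5% the hypertrophic median for PTH against control was 0.64, against -0.06. The share of calls that were higher moved from 47.2% to 32.0% (collagens at 5%) and 33.8% (200 UMIs) in the control against other cartilage, from 47.8% to 60.9% in PTH (collagens at 5%), from 67.5% to 52.6% in PTH against control (collagens at 5%), from 67.3% to 57.3% (Mmp13 class alone) and 53.6% (equal classes) in YKL against control, and from 45.3% to 68.3% in YKL against PTH (2-fold). Terminal chondrocytes numbered 35 to 54 per library and some entered on 1 UMI, so genes of few UMIs were not detectable as different at this depth.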

Other observations

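Barcodes with under 500 genes were not used above. Among those of them with 1% or more cartilage collagen UMIs, 11 of 185 in the control library (5.95%), 9 of 91 in PTH (9.89%) and 28 of 123 in YKL (22.8%) met the rest of the rule, and 8, 8 and 21 of them did so on 1 UMI of the rule genes. The barcodes that met it had median depths of 822, 777 and 619.5 UMIs.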
